A study of Homo sapiens with 2 samples.

Results

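Peaks of HNRNPK ChIP-seq that lie inside very long protein-coding genes were examined in H1299 cells. A peak was a member when it was on chromosomes 1 to 22 and its midpoint fell inside a protein-coding gene of the RefSeq annotation of GRCh38 with a span of 500 kb or more. The rule used position and gene span only, and no measured height. It took 1005 of the 22351 peaks of the list, or 1005 of the 21870 peaks on the autosomes. The genes that could hold them numbered 303 of 19126 autosomal coding genes, with spans from 500.8 to 2474 kb and a median of 721 kb. The study sequenced 1 IP library, made with an antibody against HNRNPK, and 1 input library without antibody, both from untreated H1299 cells, a human lung cancer line that the labels call lung adenocarcinoma. The input served as control for the peak calls. There were no replicates, so the intervals given here cover counting error only and no p-value compares groups of peaks. Read totals were not used here, and depth was read from the fragments under each peak.

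HNRNPK is a DNA- and RNA-binding protein with KH domains that prefers C-rich single strands and takes part in transcription and in the processing of RNA. Very long coding genes are mostly intron, take hours to transcribe from end to end, and are often genes of neurons, among them cell adhesion molecules, ion channels and synaptic receptors. Several of them span common fragile sites, which are regions prone to breakage when replication is slowed.

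Few member peaks lay at an annotated start. RefSeq promoter windows of GRCh38, 250 bases before to 50 after a start, were held for 251 of the 303 long genes, 588 windows in all. A peak overlapped 5 of these windows (0.850%, 95% Wilson interval 0.364 to 1.97), in 4 genes. Over all 21156 autosomal windows the share was 1.94%, which this interval includes. Counted by gene, a window was overlapped in 1.59% of the long genes with windows and in 2.43% of all such autosomal genes. These 5 windows are shown because they are the long-gene starts at which the list places HNRNPK. Each is written 5′ to 3′ on the strand of its gene, with the bases under the peak in capitals. MAPK10 encodes a JNK kinase, PCDH15 a protocadherin of hair cells and photoreceptors, SEMA5A a semaphorin for axon guidance and RBFOX3 the splicing regulator also known as NeuN. The genes of the MAPK10, PCDH15 and SEMA5A windows were named after their values were seen.
MAPK10 (chr4:86360004-86360303, minus strand): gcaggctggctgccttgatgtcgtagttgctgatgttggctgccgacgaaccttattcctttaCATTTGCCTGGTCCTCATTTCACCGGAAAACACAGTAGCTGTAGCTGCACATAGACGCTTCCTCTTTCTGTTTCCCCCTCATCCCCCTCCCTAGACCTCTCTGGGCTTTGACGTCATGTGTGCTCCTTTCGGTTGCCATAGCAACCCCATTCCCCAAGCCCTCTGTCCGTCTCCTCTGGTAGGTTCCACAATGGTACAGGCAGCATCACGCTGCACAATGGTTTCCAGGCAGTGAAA
PCDH15 (chr10:55627893-55628192, minus strand): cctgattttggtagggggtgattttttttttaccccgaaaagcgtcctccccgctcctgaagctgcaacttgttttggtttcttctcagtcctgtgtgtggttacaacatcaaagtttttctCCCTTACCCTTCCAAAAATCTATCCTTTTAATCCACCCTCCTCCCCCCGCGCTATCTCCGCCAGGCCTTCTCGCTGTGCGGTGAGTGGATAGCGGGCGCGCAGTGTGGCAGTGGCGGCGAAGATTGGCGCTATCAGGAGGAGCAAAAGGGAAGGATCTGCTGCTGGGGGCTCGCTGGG
SEMA5A (chr5:9546026-9546325, minus strand): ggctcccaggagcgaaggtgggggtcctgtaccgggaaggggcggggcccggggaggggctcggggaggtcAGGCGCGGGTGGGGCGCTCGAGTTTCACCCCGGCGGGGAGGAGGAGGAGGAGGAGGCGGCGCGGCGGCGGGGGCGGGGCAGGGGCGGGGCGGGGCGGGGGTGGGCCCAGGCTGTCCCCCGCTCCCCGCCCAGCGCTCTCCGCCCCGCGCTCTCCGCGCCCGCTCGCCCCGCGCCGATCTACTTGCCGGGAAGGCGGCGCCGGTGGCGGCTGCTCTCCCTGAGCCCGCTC
RBFOX3, upstream window (chr17:79562507-79562806, minus strand): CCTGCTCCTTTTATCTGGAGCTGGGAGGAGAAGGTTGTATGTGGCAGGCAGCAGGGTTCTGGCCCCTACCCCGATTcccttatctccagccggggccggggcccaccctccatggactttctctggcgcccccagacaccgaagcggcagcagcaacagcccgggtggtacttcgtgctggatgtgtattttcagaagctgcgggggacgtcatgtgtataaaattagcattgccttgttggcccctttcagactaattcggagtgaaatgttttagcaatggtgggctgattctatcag
RBFOX3, downstream window (chr17:79516071-79516370, minus strand): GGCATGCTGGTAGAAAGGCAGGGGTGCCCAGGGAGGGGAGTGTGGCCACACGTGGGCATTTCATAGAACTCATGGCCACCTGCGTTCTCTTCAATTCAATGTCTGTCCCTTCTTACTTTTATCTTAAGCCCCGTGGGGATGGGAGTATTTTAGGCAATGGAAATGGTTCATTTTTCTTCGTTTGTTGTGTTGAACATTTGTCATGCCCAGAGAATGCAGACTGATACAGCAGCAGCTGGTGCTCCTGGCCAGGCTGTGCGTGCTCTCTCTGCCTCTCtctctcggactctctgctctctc

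The peak at the MAPK10 window covered 237 of the 300 bases. Its fold enrichment, the ratio of IP pileup plus 1 to local background plus 1, was 4.06, with an FDR of 0.134. Its window belonged to a start 234 kb inside the gene. The peak at PCDH15 covered 178 bases at the outermost start of the gene, with a fold enrichment of 2.77, an FDR of 1 and 5 fragments, the lowest number of the autosomal peaks. The peak at SEMA5A covered 229 bases of a window with 81% G and C, also at the outermost start, with a fold enrichment of 3.82 and an FDR of 0.290. A second SEMA5A peak, with the same fold enrichment, lay 1.16 kb inside the gene, and these 2 were the only peaks of SEMA5A. The peaks at the upstream and downstream windows of RBFOX3 covered 76 and 277 bases, with fold enrichments of 4.30 and 3.61. None of the 5 peaks had an FDR under 0.05, which 15.2% of all autosomal peaks had, and nothing is read from so few.

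Letters were searched in the windows on both strands. The motifs GCGAGG and CTAATG were taken because the study's text names them, and CCCTCCC as a C-rich run. CCCTCCC was found in 1 copy on the strand shown in MAPK10 and in 1 copy on the other strand in SEMA5A and in the downstream RBFOX3 window, and neither GCGAGG nor CTAATG was found in any of the 5. Over the 588 windows of long genes, GCGAGG was found in 23.5%, CTAATG in 7.14% and CCCTCCC in 29.9%, and over all autosomal windows in 27.1%, 5.17% and 31.0%. The median G and C content was 55.8% in the windows of long genes and 62.7% in all windows. A match is a description of the letters and not of binding.

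Most long genes held a peak, but few held many. A midpoint lay in 212 of the 303 long genes (70.0%, 64.6 to 74.9), where 30.3% of all autosomal coding genes held 1. No peak was found in 91 long genes, 1 peak in 52, 2 to 4 peaks in 96, 5 to 9 peaks in 37 and 10 or more in 27. The median was 2 peaks per gene and 0.181 peaks per 100 kb. The 27 genes with 10 or more peaks held 446 peaks, 44.4% of the members on 10.04% of the summed span. In 2 cases a peak lay in 2 long genes that overlap, so values per gene add up to 1007.

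Per length, long genes held fewer peaks than the rest of the autosomes. Their merged spans covered 250.7 Mb, which is 8.72% of the length between the outermost annotated genes of the autosomes, and held 4.60% of the peaks. This came to 0.401 peaks per 100 kb (exact Poisson 95% interval 0.376 to 0.426). Shorter coding genes, less the length shared with long ones, held 1.06 peaks per 100 kb (1.04 to 1.08), and the length outside coding genes 0.643 (0.630 to 0.655). The ratio of long to shorter genes was 0.378 (0.354 to 0.403).

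The density fell with gene span while the share of genes with a peak rose. Genes under 10 kb held 3.15 peaks per 100 kb and 12.5% of them had a peak. The next class below the long genes, up to 500 kb, held 0.601 peaks per 100 kb and 61.8% of its genes had a peak. Among the long genes, the 237 of 500 kb to 1 Mb held 0.448 peaks per 100 kb (0.416 to 0.482), with a peak in 66.7%. The 66 genes of 1 Mb or more held 0.317 (0.281 to 0.355), with a peak in 81.8%. Within the 303 long genes the relation of span to density was weak, with a Spearman correlation of -0.0722 over genes, which are not independent and share 1 IP library.

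The 12 genes with most peaks held 257 of the members (25.6%) on 4.11% of the summed span. SORCS2, a sorting receptor for neurotrophin precursors, led with 35 peaks in 550 kb, or 6.36 per 100 kb (4.43 to 8.85). GSE1, a coiled-coil protein of chromatin complexes, followed with 29 peaks in 507 kb, or 5.72 per 100 kb (3.83 to 8.22). The intervals of these 2 genes overlap. CACNA1C, the pore subunit of an L-type calcium channel, held 25 peaks (3.44 per 100 kb), and RBFOX3 held 24 (4.17 per 100 kb). RANBP2, a nucleoporin with SUMO ligase activity, also held 25 (2.23 per 100 kb). Its annotated span of 1123 kb contains 5 other coding genes, and its longest stretch without a peak was 204 kb.

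SDK1, an adhesion molecule of synapses, held 21 peaks (2.17 per 100 kb). CAMTA1, a calmodulin-binding transcription activator, held 20 (2.03 per 100 kb). PTPRN2, a phosphatase-like protein of secretory granules, held 19 (1.81 per 100 kb). PTPRT, a receptor tyrosine phosphatase, TRAPPC9, a subunit of a vesicle tethering complex, and CALN1, a calcium-binding protein of neurons, held 15 each, at 1.30, 2.05 and 2.07 per 100 kb. KAZN, a protein of desmosomes, held 14 in 1225 kb (1.14 per 100 kb). Of the 10 densest genes, those not among these 12 were KIRREL3, an adhesion molecule (2.41), GALNT17, a glycosyltransferase (2.24), SLIT3, a ligand for axon guidance (2.19), and LRRC37A2 (2.07), whose span contains 6 other coding genes. The lower bounds of the intervals of these 4 lay between 1.13 and 1.32 per 100 kb. The 4 were picked by their density, so these bounds are not set against the mean of the long genes. More than 2 peaks per 100 kb were found in 13 long genes and more than 1 in 37.

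**Figure D1:**
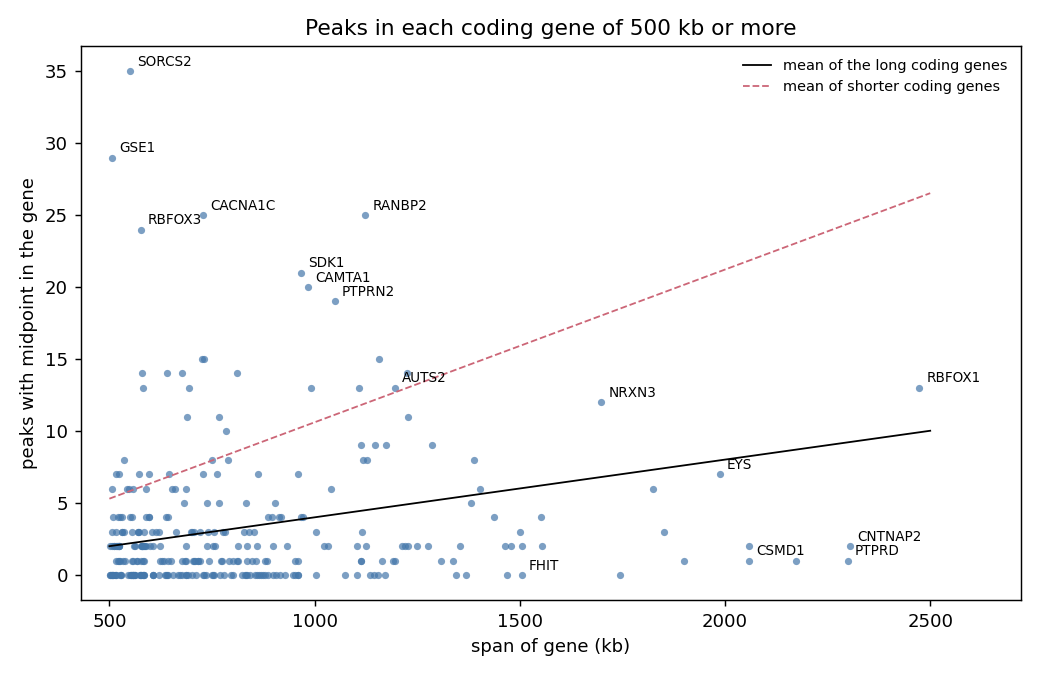
Each point is 1 of the 303 long coding genes, with its span in kb (x) and the number of peak midpoints in it (y). The solid line is the mean density of long genes (0.401 per 100 kb) and the dashed line that of shorter coding genes (1.06); SORCS2 (35 peaks) and GSE1 (29) stand highest, while CNTNAP2 (2 peaks) and PTPRD (1) lie near the bottom at 2304 and 2299 kb.

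The spacing of peaks differed between these genes. In SORCS2 the median distance between neighbouring peaks was 9.58 kb and the longest stretch without a peak, ends included, was 90.3 kb. In GSE1 these were 11.5 and 62.3 kb. PTPRT had a stretch of 402 kb without a peak and KAZN 1 of 321 kb. An FDR under 0.05, which 15.2% of all autosomal peaks had, was given to 5 of 35 peaks of SORCS2, 4 of 29 of GSE1, 2 of 25 of RANBP2, 7 of 25 of CACNA1C and 4 of 24 of RBFOX3, and the median fold enrichment of these genes was 3.53, 3.58, 3.65, 3.57 and 3.67. The count was 5 of 15 in TRAPPC9, 5 of 19 in PTPRN2, 0 of 14 in KIRREL3 and 0 of 13 in GALNT17.

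**Figure D2:**
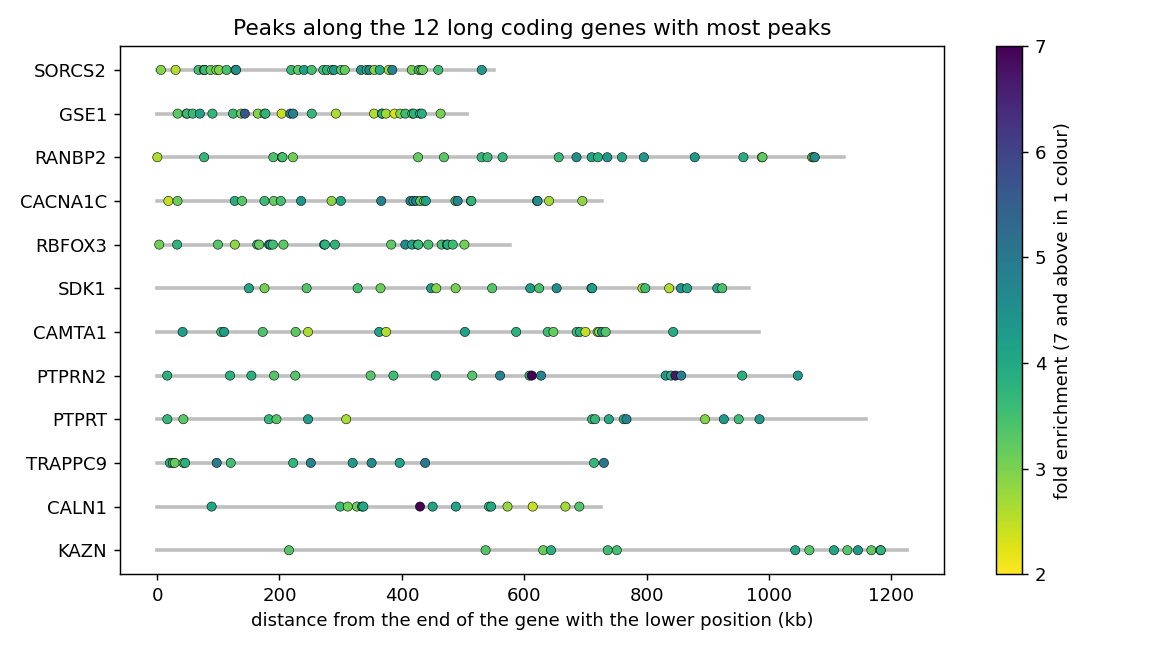
Positions of the 257 peaks in the 12 long genes with most peaks. Each grey line is a gene drawn to scale from its lower to its higher genome position (x, kb), each dot a peak midpoint coloured by fold enrichment; the darkest dots are the peaks of CALN1 (11.04) and PTPRN2 (9.25).

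Most of the 8 longest genes held 1 or 2 peaks. RBFOX1, a splicing regulator and at 2474 kb the longest gene, held 13 peaks (0.526 per 100 kb, 0.280 to 0.899). CNTNAP2, a neurexin-like adhesion protein, held 2 in 2304 kb. PTPRD, a receptor phosphatase at synapses, DLG2, a synaptic scaffold, CSMD1, a complement-regulating membrane protein, and LRP1B, a lipoprotein receptor family member, held 1 each in 2299, 2173, 2060 and 1900 kb. MACROD2, an ADP-ribosylhydrolase, held 2, and EYS, an extracellular protein of photoreceptors, held 7. The highest fold enrichment in EYS was 3.50. The longest genes without a peak were ROBO2, a receptor for SLIT ligands (1743 kb), FHIT, a hydrolase at a fragile site (1504 kb), GPC5, a glypican (1469 kb), NAALADL2, a peptidase-like protein (1370 kb), and LRRC4C, a ligand of netrin-G (1345 kb). For ROBO2 a count of 0 allows up to 0.212 peaks per 100 kb (upper Poisson bound). As ROBO2 was picked as the longest gene without a peak, its bound is the lowest among such genes. It is therefore not set against the mean of the long genes.

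The 91 genes without a peak were about as long as the others, with a median span of 688 kb beside 728 kb. Their surroundings were sparser too. In the 500 kb on each side, the median was 0.100 peaks per 100 kb for genes without a peak and 0.550 for genes with 1, and 26 of the 91 had no peak in the flanks either. FHIT was 1 of them. Of the 91 genes, 15 lay on chromosome 3, which has 33 long genes, and 10 on chromosome 13, which has 13.

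Over all 303 long genes, density inside the gene and in its flanks rose together, with a Spearman correlation of 0.666 and a Pearson r of 0.734. These are a description over genes, which share 1 library and in part the same neighbourhood. Fewer peaks per 100 kb inside than in the flanks were found for 186 genes, more for 91 and the same for 26. The mean flank density was 0.571 per 100 kb. SORCS2 (3.70), GSE1 (3.80), CACNA1C (4.20) and SDK1 (3.70) had dense flanks, and in CACNA1C and SDK1 the flanks were denser than the gene. KIRREL3 (2.41 inside, 1.10 in the flanks) was denser than its flanks. So was PDE1C (1.73 inside, 0.300 in the flanks). ASTN2, an adhesion protein of migrating neurons, held 1.31 per 100 kb inside and 0.200 in the flanks, and was named after its values were seen. Density was weakly related to the number of coding genes in span and flanks (Spearman correlation 0.326).

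Density was highest near chromosome ends. The 23 genes less than 5 Mb from the outermost gene of their chromosome held 1.07 peaks per 100 kb (0.925 to 1.22), those at 5 to 20 Mb 0.451 (0.399 to 0.509), those at 20 to 50 Mb 0.291 (0.257 to 0.328) and those farther in 0.332 (0.294 to 0.375). GSE1, CACNA1C, RBFOX3, SDK1, PTPRN2 and TRAPPC9 belonged to the outermost class. The median per gene was 0.716 in this class and 0.203, 0.158 and 0.172 in the others, in the same order, and 20 of its 23 genes held a peak. Without the 12 genes with most peaks, left out of every class in a setting chosen after seeing the data, the densities were 0.487 (0.381 to 0.615), 0.350 (0.303 to 0.403), 0.278 and 0.290, so the intervals of the outer 2 classes then overlap. Over all 303 genes the Spearman correlation of density with distance from the end was -0.173, as a description.

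On each of the 21 autosomes with a long gene, long genes held fewer peaks per 100 kb than shorter coding genes of the same chromosome. The intervals did not overlap on 20 of them, the exception being chromosome 18 (0.324 and 0.527). The ratio ranged from 0.168 on chromosome 13 to 0.637 on chromosome 16. Had the long genes carried the density of the shorter genes of their own chromosome, they would have held 2249 peaks, so the ratio within chromosomes was 0.447 beside the pooled 0.378. Chromosome 19 has no long gene, and its shorter genes held 4.48 peaks per 100 kb. The highest density of long genes was on chromosome 16 (1.09, 0.866 to 1.35), where all 7 held a peak, and the lowest on chromosome 13 (0.0292, 0.00602 to 0.0853), where 3 peaks lay in 3 of 13 genes. Chromosome 7 had the most member peaks, 144 in 26 long genes.

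On chromosome 7, 3 neighbouring long genes each held over 1 peak per 100 kb. AUTS2, a regulator of neuronal transcription, GALNT17 and CALN1 held 13, 13 and 15 peaks. The 2906 kb from the lower end of AUTS2 to the higher end of CALN1 hold no other coding gene and carried 48 peaks, or 1.65 per 100 kb, of which 41 lay in the 3 genes. Of these 41, 3 had an FDR under 0.05, beside 15.2% of all autosomal peaks. The longest stretches without a peak were 431 kb in AUTS2, 140 kb in GALNT17 and 210 kb in CALN1. This stretch was chosen after its values were seen, as was NRXN3. NRXN3, a neurexin, held 12 peaks in 1698 kb, of which 8 lay 16.3 to 198 kb from its start. The next peak followed after 1185 kb without any, and the last 4 lay toward the far end.

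The strongest member peaks lay in CALN1, PTPRN2 and RBFOX1. The highest fold enrichment was 11.04, at chr7:72208911-72209478 in CALN1, with 33 fragments and an FDR of 2.10e-22. It lay 295 kb from the start of the gene. PTPRN2 held the second and the fourth, 9.25 at chr7:158151234-158151676 (37 fragments, FDR 2.29e-21) and 6.67 at chr7:158385822-158386330. RBFOX1 held the third, 7.63 at chr16:7229560-7230074, with 15 fragments and an FDR of 7.52e-08. It lay 1990 kb from the start of RBFOX1. PDE10A, a phosphodiesterase, followed with 6.20 at chr6:165839681-165840318, and DPP6, a subunit of potassium channels, with 5.86 at chr7:154749272-154749616.

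The next 6 peaks were tied at 5.72, each with 11 fragments and an FDR of 0.000671, and lay in GRID1, a glutamate receptor-like protein, RBFOX1, ULK4, CPNE4, IQCJ-SCHIP1 and SV2C, a synaptic vesicle protein. ULK4 held no other peak. The highest pileup, 47.7 or 49 fragments, was at chr12:2255825-2256101 in CACNA1C. Its local background was also the highest of the members, at 16, and its fold enrichment was 2.86. The next highest pileups were those of the top PTPRN2 and CALN1 peaks (36.0 and 32.1), followed by 16.6 at the other strong PTPRN2 peak and at chr17:79554218-79554579 in RBFOX3, where the fold enrichment was 3.51.

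As a class, member peaks were close to other peaks in fold enrichment and lower in local background. An FDR under 0.05 was given to 136 of 1005 (13.5%, 11.6 to 15.8), where all autosomal peaks had 15.2%. A fold enrichment of 5 or more was found in 36 (3.58%, 2.60 to 4.92), where all autosomal peaks had 3.18%. The intervals of both shares include the background. The median fold enrichment was 3.61 (3.58 to 3.65), beside 3.57 in shorter coding genes and 3.61 outside coding genes, and the members ranged from 2.15 to 11.04. The median number of fragments was 7 (7 to 8) in member peaks and 8 in both other classes, a value that the interval of the members includes. The local background, recovered from pileup and fold enrichment, had a median of 1.17 in member peaks, 1.33 in shorter genes and 1.26 outside. Its lower quartile was 1.047 in member peaks, 1.096 in shorter genes and 1.072 outside, where the lowest value of each class was 1.045. A background of 3 or more was found in 1.89% (1.21 to 2.93) of the members, 7.62% of peaks in shorter genes and 6.55% outside. Peaks of 500 bp or more made up 3.38% (2.43 to 4.69) of the members, 6.84% of peaks in shorter genes and 5.74% outside. Copy number of these cells was not analysed here, and its part in the local background was not tested.

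Few members lay near an end of their gene, but more than the share of the span that lies there. The median distance to the nearest end of the gene was 173 kb, in genes with a median span of 721 kb. The distance for evenly placed peaks was not worked out. Within 5 kb of an end lay 32 of 1005 (3.18%, 2.26 to 4.46), a zone that makes up 1.21% of the span. In the 251 genes whose strand was held, 13 of 821 pairs of gene and peak lay within 5 kb of the outermost start, or 1.04 per 100 kb (0.552 to 1.77), and 11 within 5 kb of the far end, or 0.876 (0.438 to 1.57). The density over the whole of these genes was 0.394 (0.368 to 0.422). In TRAPPC9 the peak at chr8:140457679-140458191, with a fold enrichment of 5.03, lay 0.644 kb from an end. In CPNE4, a copine, the peak with the tied fold enrichment of 5.72 lay 5.76 kb from the start.

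When each gene was divided into 10 equal parts from its start, the numbers of pairs were 85, 85, 74, 71, 60, 80, 71, 80, 110 and 105. The last 2 parts held 13.4% (11.2 to 15.9) and 12.8% (10.7 to 15.2) of the pairs, and the fifth part 7.31% (5.72 to 9.29). Nearer to the start than to the far end lay 45.7% (42.3 to 49.1). Without the 12 genes with most peaks this share was 46.1% of 633 pairs.

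Peaks in long genes stood farther apart than autosomal peaks in general. The median distance to the nearest other peak was 35.2 kb for members and 16.2 kb for all autosomal peaks. Another peak within 1 kb was found for 4.28% of the members and 5.90% of all, and within 5 kb for 15.8% and 26.7%. Another annotated gene lay over 129 of the member midpoints (12.8%). A lncRNA gene lay over 77 (7.66%), and lncRNA genes covered 7.05% of the long span. Another coding gene lay over 47 (4.68%), and such genes covered 1.30% of it. Coding genes were nested in the spans of 41 long genes.

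Grouped by function, 148 of the long genes fell into 1 or more of 10 lists and 155 into none. Over all 303 long genes the median was 0.181 peaks per 100 kb, with an upper quartile of 0.534, and 70.0% of them held a peak. The 95% intervals of all 10 lists for the share with a peak include this value. Each list is described beside these values without a test. The highest medians were those of the ion channels and of the intracellular signalling genes. Of 11 long ion channel genes 8 held a peak, with a median of 0.428 per 100 kb. CACNA1C (25) and KCNMA1, a calcium-activated potassium channel (11), held most of their 62 peaks, and ASIC2, an acid-sensing channel, held none in 1144 kb. The pooled density was 0.608 per 100 kb (0.466 to 0.779), and 0.391 (0.275 to 0.538) without CACNA1C, a setting chosen after seeing the data, as for the other lists given without a gene.

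Of 18 intracellular signalling genes 15 held a peak, with a median of 0.311. PDE1C held 14 and PDE10A 6, both phosphodiesterases, and DGKB, a diacylglycerol kinase, held none. Of 7 RNA-binding proteins and splicing regulators 5 held a peak, with a median of 0.271. The pooled density of these 7 genes was 0.627 (0.452 to 0.848), and 0.294 (0.174 to 0.465) without RBFOX3. RBFOX3 (24) and RBFOX1 (13) held most of their 42 peaks. CELF2, a splicing regulator, held none in 874 kb. Of 23 transcription and chromatin regulators 15 held a peak, with a median of 0.264. CAMTA1 held most (20), followed by AUTS2 and ZFHX3 with 13 each, and ZNF385D, a zinc finger protein, held none in 961 kb. GSE1, with 29 peaks, was not in this list.

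The adhesion genes were close to or below the median of all long genes. Of 39 synaptic and neuronal adhesion genes 27 held a peak, with a median of 0.148, and 18 lay above the median of all long genes. SDK1 held most (21), followed by SLIT3 and KIRREL3 with 14 each, and ROBO2 was the longest with none. Of 10 cadherins and catenins 7 held a peak, with a median of 0.172. CDH4 held 11, CDH13 held 9, and CDH12 held none in 1103 kb. Of 8 neurotransmitter receptor genes 5 held a peak, with a median of 0.123. GRID1 held 5, GABRG3, a GABA receptor subunit, held 3, and GRIK2, a kainate receptor subunit, held none. Of 12 extracellular matrix and proteoglycan genes 7 held a peak, with a median of 0.104. SLIT3 (14) and EYS (7) held most, and GPC5 none.

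The fragile site genes and the receptor phosphatases and kinases were sparse or uneven. Of 24 genes at common fragile sites 18 held a peak, the pooled density was 0.210 (0.164 to 0.266) and the median 0.127. Most of the 24 span over 1 Mb, and all long genes of 1 Mb or more held 0.317 per 100 kb (0.281 to 0.355). The part of span in the low density was not tested. Of the 24 fragile site genes, 7 lay above the median of all long genes. RBFOX1 and AUTS2 held 13 each of their 69 peaks, and FHIT held none. Of 9 receptor tyrosine phosphatases and kinases 6 held a peak. Their pooled density was 0.486, and 0.321 (0.211 to 0.466) without PTPRN2, and their median the lowest of the lists, at 0.0860. PTPRN2 (19) and PTPRT (15) held most of the 46 peaks, and EPHA6, an ephrin receptor, held none in 947 kb.

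Among long genes with 5 or more peaks, the median fold enrichment was highest in PCDH15, while some genes with 1 to 3 peaks, such as ULK4 and SV2C, had a higher one. PCDH15 held 6 peaks in 1825 kb, with a median fold enrichment of 4.74, while its flanks held 0.100 peaks per 100 kb. The gene was picked by its fold enrichment, and FDR comes from the same IP and input signal. Its share of peaks with a low FDR is therefore no separate result. An FDR under 0.05, which 15.2% of all autosomal peaks had, was given to 4 of the 6. The 4 had fold enrichments of 4.71, 4.96, 5.25 and 4.77 and lay 1460, 789, 366 and 89.0 kb from the start. The other 2 were 1 with a fold enrichment of 3.27 and the peak at the promoter window shown above.

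The genes closest to the span threshold on either side held few peaks. Just inside it were PPP2R2B (500.8 kb), with 2 peaks, and PPFIA2, SPOCK3, CCDC178 and ERC1 (501.4 to 506 kb), with 0. Just outside it were DIAPH3 (498.3 kb) with 0, CPQ with 2, ITPR2 with 1, CACNA2D1 with 4 and DST (496.8 kb) with 0. Slightly farther inside lay BBS9 (506.5 kb) with 6 peaks and GSE1 (506.7 kb) with 29, so a slightly higher threshold would leave out GSE1.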

How the data were processed

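The study measured HNRNPK binding by ChIP-seq in 1 IP and 1 input library of H1299 cells, and 1 peak list was used. The submitters' processing notes name Trimmomatic 0.36, STAR 2.5.3a, MACS2, bedtools and HOMER and the build GRCh38. In the deposited list, fold enrichment was read as the ratio of IP pileup plus 1 to local background plus 1. FDR is a q-value on a linear scale from the authors' peak caller, and pileup is a signal in scaled fragments. The p-value that the authors deposited was not used here. Pileups were whole multiples of 0.9735 to within 0.00565 of a step, which gave fragments. Local background was pileup plus 1, over fold enrichment, minus 1. Peak names begin with an A in place of the H of H1299, so assigning the list to this IP is a reading.

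Peaks were placed by midpoint on RefSeq gene spans of GRCh38.p14, 1-based and inclusive, and placement was tested on simulated data. Densities carry exact Poisson and shares Wilson 95% intervals, medians order-statistic intervals, and the ratio a normal interval on the log scale. Flanks were 500 kb on each side. RefSeq promoter windows were matched by gene, and 52 long genes had no window and no strand. Exons, introns and sequence outside the promoter windows were not used here.

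Named were the 12 long genes with most midpoints, the 10 with most per 100 kb, the 8 longest, the 5 longest with none, those of the 10 most enriched peaks and the 5 with the highest pileup, and from each functional list the 2 with most midpoints and the longest with fewest. Ties went to the longer gene, except that all 6 peaks tied at the tenth place were given. Genes just inside and outside the threshold were also named, and other names were chosen after their values were seen. 1 functional list is not reported here. The members and lists were chosen with earlier results of these data known. Alternatives were stricter thresholds, other span limits and overlap rules, merged peaks, and leaving out chromosome ends or single genes, and the closing section gives their effect. Python 3.11.15, numpy 2.4.6, scipy 1.17.1, pandas 2.3.3 and matplotlib 3.10.9 were used.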

Additional observations from a re-analysis of the deposited data

How the results depend on the processing

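In every alternative run, long coding genes held fewer peaks per 100 kb than shorter ones. Of 71 alternative values, 46 stayed within the interval of the reported value or, for counts, within 1.5 times of it, and 25 did not. With peaks of FDR under 0.05 only, there were 136 member peaks in 75 genes, 0.0542 per 100 kb, a ratio to shorter genes of 0.353 and a median fold enrichment of 4.77. With a fold enrichment of 5 or more, there were 36 member peaks in 29 genes, 0.0144 per 100 kb, a ratio of 0.467 (0.330 to 0.660) and a median fold enrichment of 5.37, with 100% under an FDR of 0.05 and 5.56% within 5 kb of an end. A span of 300 kb or more gave 1908 peaks in 489 of 739 genes and 0.458 per 100 kb. A span of 1 Mb or more gave 288 peaks in 54 of 66 genes, 0.317 per 100 kb, a ratio of 0.325 and 2.08% within 5 kb of an end. These counts follow from fewer peaks or other genes entering. Without the 5 Mb next to chromosome ends the density was 0.352 per 100 kb, and without the 5 genes with most peaks it was 0.351, with a ratio of 0.330. Of the settings chosen after seeing the data, the ratio was 0.425 without chromosome 19 and 0.447 within chromosomes, while leaving out the 5 long genes that hold 3 or more other coding genes gave 0.361. The cause of the shifts in ratio and density was not tested. Overlap of 1 bp, whole peaks inside and merging moved none of the 7 results beyond these limits. No paired analysis was possible because the series has a single IP. Member peaks had a median of 7 fragments, and the effect of depth on the calls was not tested.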

Other observations

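Long genes outside the rule held few peaks. On the X chromosome 11 coding genes span 500 kb or more, and 2 of them held a peak, DIAPH2 and DACH2 with 2 each. This came to 0.0378 peaks per 100 kb (exact Poisson 95% interval 0.0103 to 0.0967), where the X chromosome as a whole held 223 peaks, or 0.143 per 100 kb (0.125 to 0.163). DMD, which encodes dystrophin, held none in 2220 kb, and IL1RAPL1 none in 1369 kb. Among autosomal lncRNA genes, 41 span 500 kb or more and 25 of them held 51 peaks, or 0.201 per 100 kb (0.150 to 0.265). The autosomal length outside coding genes held 0.643 per 100 kb (0.630 to 0.655). LOC105373592 held 7 and CASC15 held 5. None of the 51 peaks lay in a long coding gene. The names in this paragraph were chosen with their values in view.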
